A study of Mus musculus with 2 samples.

Results

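MicroRNAs of the red cell lineage were compared between unwounded mouse skin and unwounded oral mucosa. The group was chosen by name, with the signals of miR-451a on these arrays already known, and took in mmu-miR-451a, mmu-miR-144-3p, mmu-miR-144-5p and every probe whose name begins with mmu-miR-486. This gave 4 of the 1892 mouse microRNA probes on the array, the last being mmu-miR-486-3p. Since the signals were known when the group was drawn up, each value here is a description and none was tested. The label "red cell" refers to where these microRNAs are known to be abundant, and the cells that held them in the samples were not identified.

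Each tissue was profiled on 1 single-colour (Cy5) array, to which 2 µg of total RNA was applied, a pool of 3 animals. Both samples were baseline tissue without a wound or treatment, and the study's methods describe its mice as female Balb/c aged 8 to 10 weeks. Skin and oral mucosa came from matched animals, but pooling removed the animal-to-animal spread, so a difference is one between 2 arrays and no test between the tissues was possible. Fewer cells of a type and less RNA per cell cannot be told apart in such pools. The files hold the median brightness of each spot in scanner units, and each probe has 2 repeat spots. The 16 empty spots averaged 36.4 for skin and 51.9 for oral mucosa. The detection limit was set 3 SD above this background, at 59.9 for skin and 71.8 for oral mucosa, and a probe whose spots averaged more counted as detected. The number of arrays limits the precision, and the SDs below come from repeat spots and cover technical error only.

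MiR-144 and miR-451a are cut from hairpins that lie side by side in 1 primary transcript, which the transcription factor GATA1 switches on in erythroid precursors. Most microRNAs are cut from the stem of their hairpin by Dicer, whereas the miR-451a hairpin has a stem too short for Dicer and is cut by Argonaute 2, so that the mature strand runs on into the loop. Mature red cells keep large amounts of miR-451a, and mice without the locus make red cells that are sensitive to oxidative stress. MiR-486 comes from the ankyrin gene Ank1, whose protein holds the red cell membrane to its skeleton, and the same gene also serves skeletal muscle.

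The 3 mature strands of the locus, and miR-451b from the opposite strand, are shown because the results turn on one of them against its neighbours. The RefSeq sequences were the same as the target sequences of the array probes, and capitals mark the seed (bases 2 to 8), which pairs with target RNAs.
mmu-miR-451a: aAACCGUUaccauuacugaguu
mmu-miR-144-3p: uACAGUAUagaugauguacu
mmu-miR-144-5p: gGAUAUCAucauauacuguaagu
mmu-miR-451b: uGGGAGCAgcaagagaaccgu

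In GRCm38.p6 the mature strands lie on the plus strand at chr11:78073186-78073207 for miR-451a, chr11:78073047-78073066 for miR-144-3p and chr11:78073010-78073032 for miR-144-5p. MiR-451b lies on the minus strand at chr11:78073219-78073239. The hairpins of miR-144 (chr11:78073005-78073070) and miR-451a (chr11:78073170-78073241) are 99 bases apart and together span 237 bases. RefSeq places no protein-coding gene over them. Flot2 is the nearest gene before and Eral1 after, and the hairpin of miR-451a lies within the bounds of Mir451b, which is read from the other strand. The hairpins are printed with the mature strands in capitals because they show the different places of the strands within them.
Mir144: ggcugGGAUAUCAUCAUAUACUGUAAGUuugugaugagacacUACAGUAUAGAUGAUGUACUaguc
Mir451a: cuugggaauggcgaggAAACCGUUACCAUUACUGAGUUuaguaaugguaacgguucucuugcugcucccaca

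**Figure D1:**
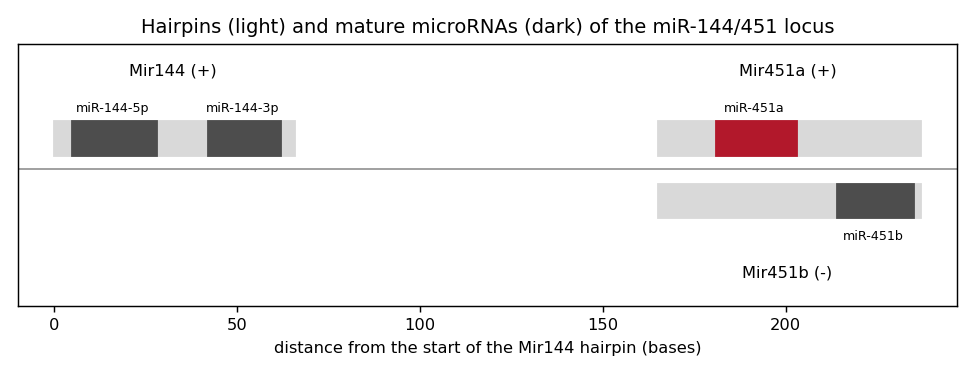
The locus of miR-144 and miR-451a, drawn to scale as distance in bases from the start of the Mir144 hairpin, with hairpins in light grey and mature strands in dark grey or red (miR-451a). The 2 plus-strand hairpins lie 99 bases apart, and miR-451b is read from the strand opposite miR-451a. The hairpin of miR-451b is drawn with the bounds of the miR-451a hairpin.

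Of the 4 red cell probes, miR-451a was detected, and miR-144-3p, miR-144-5p and miR-486-3p stayed below the limit on both arrays. The 2 repeat spots of miR-451a read 62.1 and 72.5 on the skin array and 3177 and 2936 on the oral mucosa array. Both skin spots thus lay just above the limit and both oral mucosa spots far above it. MiR-451a is known to repress the 14-3-3 protein gene Ywhaz in erythroid cells. In skin the mean of the repeat spots was 67.3 ± 7.34 (SD, n = 2 spots), 3.95 SD above the empty spots, and in oral mucosa 3056 ± 171.

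**Figure D2:**
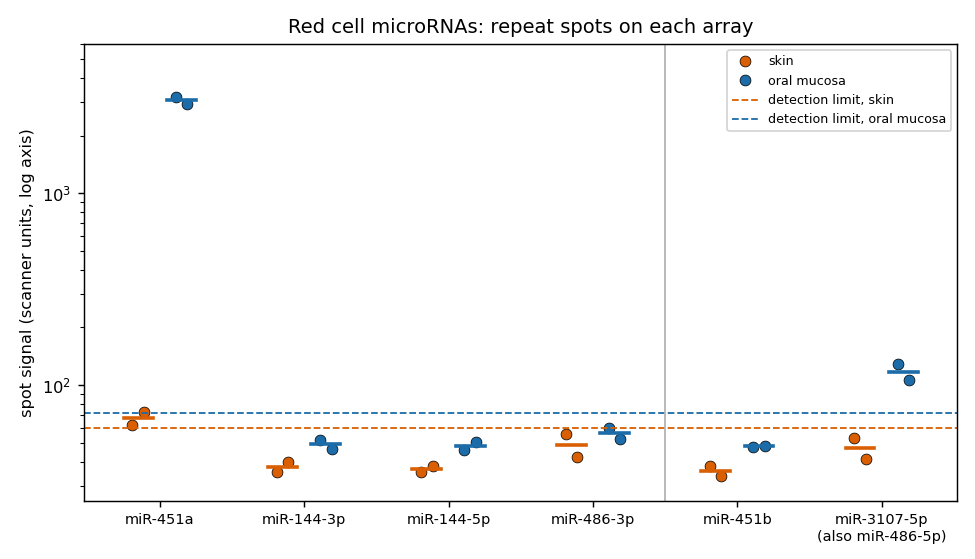
Signal of each repeat spot (points, scanner units, log axis) and the mean of the 2 spots (bars) for skin (orange) and oral mucosa (blue), with the detection limit of each array dashed; the 4 red cell probes stand left of the vertical line and 2 related probes right of it. MiR-451a stands alone at 2936 and 3177 in oral mucosa, and the other red cell probes stay below both limits.

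The size of this difference was read on several scales because the skin signal was so near the background. The uncorrected signals differed 45.4-fold. Above the mean of the empty spots the signal was 30.9 in skin and 3005 in oral mucosa, a ratio of 97.2. The processed intensities that the authors deposited for miR-451a were 34 in skin and 2666 in oral mucosa, a ratio of 78.4. All these readings put the signal higher on the oral mucosa array. They differ in whether background was taken out, and the processed intensities also in a scaling that is not given in the sources used here.

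For a comparison across all probes Variance Stabilizing Normalization (VSN) was used, a transformation with 1 offset and 1 scale per array that approaches log2 for bright spots. A difference on this log2 scale is always that of oral mucosa over skin. For miR-451a it was 6.21 (SD 0.37 from the repeat spots), or 74.3-fold. It was 5.92 between the oral mucosa and skin spots that lay closest and 6.55 between those farthest apart. When the limit was raised to 5 SD above the empty spots, the skin signal was no longer detected, and the value from the lowest detected skin signal was 5.85. With the first repeat spots alone the difference was 6.70, with the second spots alone 5.76, and under the other normalizations, background corrections and spot choices run it lay between 5.01 and 6.23.

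The arrays detected 562 microRNAs between them, and those that differed at least 2-fold (1 on the VSN log2 scale) were counted. Of the 4 red cell probes 1 was detected and could be counted, and by this rule it was called higher in oral mucosa, as were 13.7% of the 562. A further 14.8% of the 562 were called higher in skin. The share of the differing microRNAs that were higher in oral mucosa was 48.1% with VSN, but 78.4% with no normalization between the arrays, 67.1% with normexp and median scaling and 36.5% after subtraction of the empty spots, so the background share in either direction depends on the scaling. The count for the red cell probes was 1 under all settings in which it was counted.

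MiR-451a had the largest difference toward oral mucosa of the 562 microRNAs. Counting both directions it was number 2 in size, after miR-10b-5p at -6.67 (SD 0.11), a microRNA from a Hox gene cluster that was higher in skin. MiR-10b-5p was not detected in oral mucosa, so its value was taken from the lowest signal detected there, with an SD from the skin spots. MiR-451a kept rank 1 toward oral mucosa under every alternative run except with the second repeat spots alone. There it was number 2 at 5.76 and 1 other probe reached 7.58. With VSN, both spots and the 3 SD limit, no other detected microRNA had a like value. The 3 nearest were miR-346-5p, miR-6540-5p and miR-195a-3p. Their differences were 3.73 (SD 0.18), 3.52 (SD 0.32) and 3.37 (SD 0.30), a gap of 2.49 to the nearest. MiR-346-5p was not detected in skin, so its value was taken from the lowest signal detected there, with an SD from the oral mucosa spots. When undetected probes were also counted, the largest other difference was 5.25. The SDs of the repeat spots do not measure the spread between animals. These values rest on 2 arrays.

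**Figure D3:**
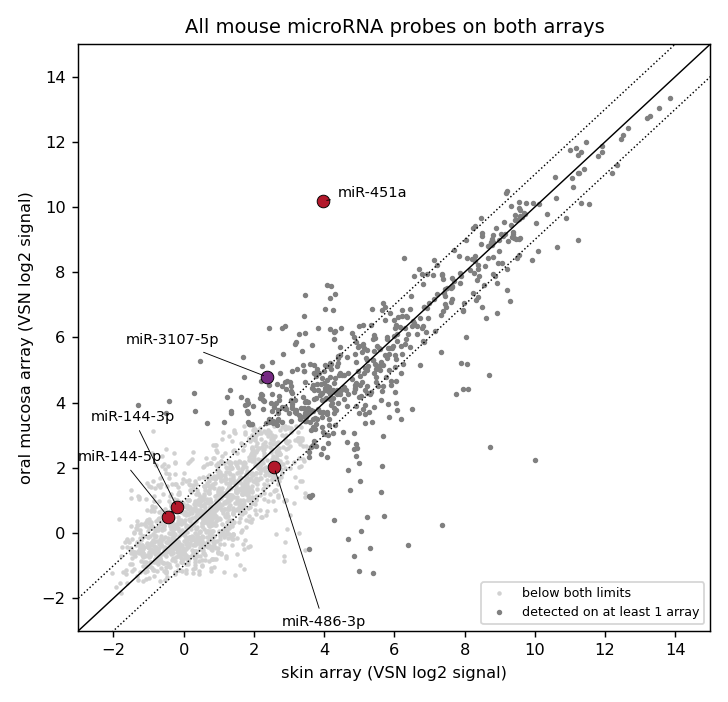
VSN log2 signal on the skin array against that on the oral mucosa array for all 1892 probes; light points were below both limits, the solid line marks equal signal and the dotted lines a 2-fold difference. MiR-451a lies 6.21 above the line of equal signal, while the 2 strands of miR-144 and miR-486-3p lie within the light cloud.

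MiR-144 was not detected beside miR-451a on either array. The spots of miR-144-3p, the strand that represses the antioxidant regulator Nrf2, read 35.2 and 39.6 in skin and 51.9 and 46.8 in oral mucosa. Those of miR-144-5p, the other strand of the hairpin, read 35.4 and 38.1 in skin and 45.9 and 50.5 in oral mucosa. All 8 values lay within 1 SD of the mean of the empty spots of their own array. No difference between the tissues can be given for signals at this level, and they do not show that either strand was absent. The means were 37.4 ± 3.05 in skin and 49.3 ± 3.61 in oral mucosa for miR-144-3p, and 36.7 ± 1.90 and 48.2 ± 3.27 for miR-144-5p. The processed intensities were 0 in skin for both strands, and in oral mucosa 2 for miR-144-3p and 1 for miR-144-5p.

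The place of these dim probes on the array and their base content were also read. The first spot of each miR-144 strand lies in column 2 of the array, at an edge where some spots of the skin array were dim. The second spots, in column 17, were also below both limits. On the skin array the median of the neighbouring probes was 42.95 and 43.8 around the column 2 spots. It was 41.0 and 41.7 around the column 17 spots. An effect of the layout on the miR-144 probes was not tested. The miR-144 strands hold few G and C bases, 30.0% for miR-144-3p and 30.4% for miR-144-5p, against a median of 52.2% over all probes. Of the 118 probes within 5 points of the former value, 28.0% were detected on the oral mucosa array, and of all probes 27.0%. MiR-451a held 36.4% G and C.

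The bright miR-451a spots stood among dim ones. The median signal of the probes within 3 rows and 3 columns was 45.9 around the first and 48.1 around the second oral mucosa spot, and 38.7 and 34.3 around the skin spots. The probe of miR-451b lies in the row next to miR-451a at both places. It read 47.8 and 48.1 in oral mucosa and 38.0 and 33.7 in skin, below the limit on both arrays, so the spots beside the bright ones stayed at the level of the background.

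MiR-486 was represented by a probe for each strand. MiR-486-3p, the less abundant strand, read 55.6 and 42.0 in skin and 59.7 and 52.5 in oral mucosa, with means of 48.8 ± 9.60 and 56.1 ± 5.10. None of the 4 spots reached its limit, and the values of the tissues overlapped. The array had no probe named for miR-486-5p, the abundant strand, which is known to repress Foxo1. According to the annotation of the skin file, the probe of mmu-miR-3107-5p stands for miR-486-5p as well. That probe lies outside the naming rule and was added after its values were seen. RefSeq places Mir486 and Mir3107 over one another, both within Ank1.

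The spots of the miR-3107-5p probe read 53.0 and 41.5 in skin, below the limit, and 129 and 106 in oral mucosa, above it. The uncorrected spots of the 2 tissues did not overlap, but the same held for both miR-144 strands, which were not detected. The means of the miR-3107-5p probe were 47.3 ± 8.17 in skin and 118 ± 15.9 in oral mucosa. Against the lowest signal detected in skin the probe differed by 1.23 (SD 0.32 from the oral mucosa spots), at least 2.35-fold on this scale. The direction held under all settings in which the difference was computed, but the size fell under the 2-fold rule with quantile normalization (0.57), median scaling (0.67), scaling to the 75th percentile (0.52), the authors' processed values (0.80), no normalization (0.97), the second repeat spots alone (0.80) and normexp with median scaling (0.62). The probe of miR-3107-3p, from the same place, was below the limit on both arrays at 44.5 ± 11.9 in skin and 59.3 ± 1.73 in oral mucosa.

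**Figure D4:**
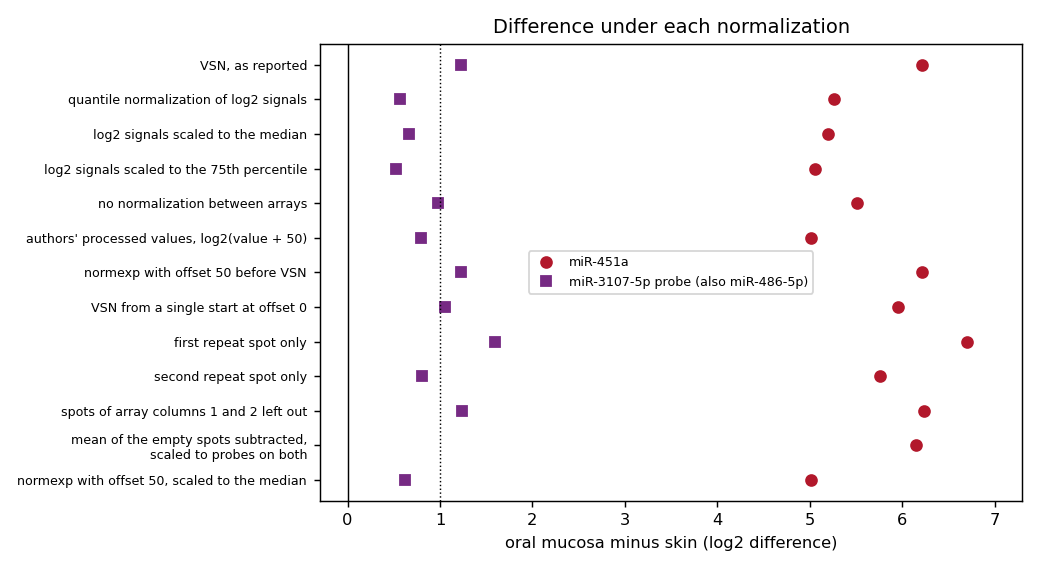
Log2 difference, oral mucosa minus skin, of miR-451a (red circles) and of the miR-3107-5p probe, which also stands for miR-486-5p (purple squares), under VSN and each alternative; the dotted line marks a 2-fold difference. MiR-451a stays between 5.01 and 6.70, while the miR-3107-5p probe runs from 0.52 to 1.59 and lies on both sides of the dotted line.

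Seeds were compared with those of the 1598 probes that could be paired by name with a RefSeq sequence. None shared bases 2 to 8 with miR-451a, miR-144-3p or miR-144-5p, and none came within 4 edits of one of them. Bases 2 to 7 of miR-144-3p were shared by 1 other microRNA, miR-101a-3p, which is shown for that reason with bases 2 to 8 in capitals.
mmu-miR-101a-3p: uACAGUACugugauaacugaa
MiR-101a-3p, a microRNA found in many tissues that represses the histone methyltransferase gene Ezh2, was detected on both arrays at 162 ± 0.18 in skin and 87.5 ± 13.6 in oral mucosa. Its difference was -2.04 (SD 0.48), called higher in skin, as were 14.8% of all detected microRNAs. MiR-144-3p itself was not detected, so its direction could not be set beside that of its seed relative.

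Other microRNAs that are abundant in red cells without being restricted to them showed no common shift with the spots of all columns kept. Of 12 on the list 11 were detected, 1 higher in oral mucosa, 1 higher in skin and 9 within the 2-fold rule. Their median difference was -0.09, against -0.00 over all detected microRNAs. MiR-16-5p, from the family of miR-15 that restrains the cell cycle, had signals of 2976 ± 885 (skin) and 3236 ± 61.6 (oral mucosa) and differed by -0.34 (SD 0.44). MiR-15b-5p of the same family was the lowest at -1.42 (SD 0.35), higher in skin. The highest was miR-185-5p at 1.01 (SD 5.35), but 1 of its skin spots lies in column 2. Without columns 1 and 2 it was 0.08, no longer past the rule. Leaving out those columns also moved miR-16-5p to -0.62, miR-15b-5p to -1.62, miR-17-5p from 0.06 to -0.27 and miR-106b-5p to 0.00. The median of the list then lay further toward skin.

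MicroRNAs known to fall or to act as red cells mature were examined next. Of 9 on the list 7 were detected, of which 3 passed the rule toward oral mucosa and 0 toward skin, with a median of 0.63, beside 13.7% and 14.8% of all detected microRNAs. MiR-221-3p and miR-222-3p, which hold back erythroid growth through the receptor Kit, differed by 1.26 (SD 0.13) and 1.34 (SD 0.14). MiR-150-5p, a lymphocyte microRNA that also acts in the choice between megakaryocytes and red cells, read 248 ± 37.5 in oral mucosa and did not reach the limit in skin, so that its difference of 2.73 was taken from the lowest signal detected there. Of the 7 detected, 4 lay above 0. MiR-191-5p was the lowest at -0.52 (SD 0.18), and miR-320-3p at -0.27 (SD 0.31) and miR-24-3p at -0.21 (SD 0.10) also lay below 0. The cells that held the listed microRNAs were not identified.

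Lists for other cells in the tissue were set beside these. The leukocyte list shares miR-150-5p, miR-155-5p and miR-223-3p with the list for red cell maturation, so the 2 are not separate observations. Of 7 leukocyte microRNAs 3 were detected, all 3 above 0, from miR-342-3p at 0.32 (SD 0.18) to miR-150-5p at 2.73 (SD 0.27), and 2 past the rule (miR-150-5p and miR-146a-5p), where 13.7% of all detected microRNAs passed it toward oral mucosa. The signal of the list, summed over its members after taking the mean of the empty spots from each, was 113 in skin and 348 in oral mucosa. Such sums take in undetected members and were not scaled between the arrays. The VSN scale ratio of the arrays was 1.37, with oral mucosa the brighter. The defining leukocyte microRNAs miR-142a-3p and miR-223-3p were below the limit on both arrays. Of 2 endothelial microRNAs miR-126a-3p passed the limit in oral mucosa alone, differing by 1.84 (SD 0.70), and miR-126a-5p passed it nowhere. Summed above the empty spots they read 8.83 in skin, where neither was detected, and 96.4 in oral mucosa. Of 6 skeletal muscle microRNAs 3 were detected, 0 past the rule, with a median of 0.53. Over all detected microRNAs, 13.7% passed it toward oral mucosa and 14.8% toward skin. MiR-133a-3p, which marks muscle fibres, differed by 0.71 (SD 0.24) and was detected in oral mucosa alone. MiR-206-3p, the member detected on both arrays, differed by -0.19 (SD 0.36), and miR-1a-3p was not detected. The sum of the list above the empty spots, again not scaled between the arrays, was 158 in skin and 208 in oral mucosa. The part of blood, vessels, leukocytes or muscle in the signals of miR-451a and the miR-3107-5p probe was not tested.

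The labels name tissues lined by stratified epithelium, and epithelial microRNAs were read on both arrays, though they cannot tell one tissue from the other. All 7 on the list were detected on both arrays, 1 higher in oral mucosa, 1 higher in skin and 5 within the rule, with a median of -0.48. Of all detected microRNAs, 13.7% passed the rule toward oral mucosa and 14.8% toward skin. The lowest on the list was miR-200c-3p at -1.22 (SD 0.46) and the highest miR-429-3p at 1.12 (SD 0.89). MiR-203-3p and miR-205-5p, the most typical microRNAs of stratified epithelium, differed by -0.48 (SD 0.37) and -0.51 (SD 0.59).

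**Figure D5:**
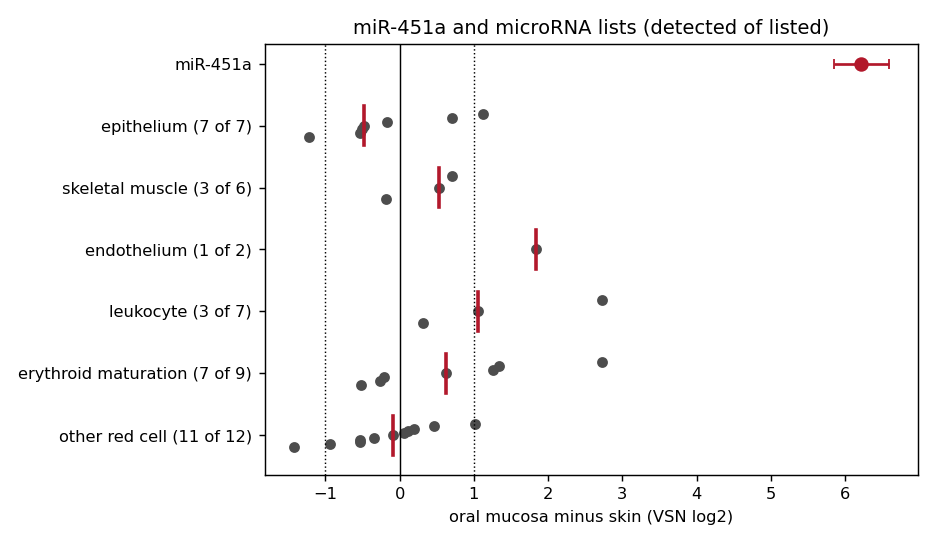
VSN log2 difference between oral mucosa and skin of each detected microRNA in the lists (grey points, with list medians as red bars) and of miR-451a with its repeat-spot SD; dotted lines mark 2-fold differences, and the counts give detected of listed microRNAs. MiR-451a, at 6.21, lies to the right of every listed microRNA, the highest of which is miR-150-5p at 2.73. The other red cell microRNAs have a median of -0.09 with the spots of all columns kept.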

How the data were processed

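Per the file headers, the authors deposited for each array the median intensity of every spot and its SD within the spot (Cy5, scanner units), with no background subtraction or scaling. They also deposited 1 processed intensity per microRNA, in whole numbers, whose scaling is not given in the sources used here. Of 3968 spots per array, 1892 probes with 2 spots each were kept and averaged. VSN was written in Python as an arsinh transformation with maximum likelihood, started from several offsets and scales, trimming the 10% of probes with the largest residuals in all but the dimmest of 5 slices. It gave an offset of 37.9 (skin) and 46.3 (oral mucosa) with a scale ratio of 1.37, and was tested on simulated data. For a microRNA detected on 1 array, the other array's value was its own signal or the lowest detected one, whichever was higher. Members, lists and alternatives were chosen with earlier results of these data known. Named were the members, miR-451b, seed relatives, the 3 nearest differences, the ends of each list and a few further list members, these last chosen after their values were seen. Alternatives were other normalizations, background corrections, filters, thresholds and spots. CyberT, named by the study's methods, was not run, since the repeat spots share 1 pool. Normexp used limma 3.58.1 in R 4.3.3, and the rest pandas 2.3.3, scipy 1.17.1 and numpy 2.4.6 under Python 3.11.15. MicroRNA sequences and positions are those of RefSeq on GRCm38.p6.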

Additional observations from a re-analysis of the deposited data

How the results depend on the processing

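The direction of miR-451a held under all 12 alternatives, and its difference moved from 6.21 to 5.26 with quantile normalization, 5.20 with median scaling, 5.05 when the 75th percentile was the scale, 5.51 without normalization, 5.01 with the authors' processed values, and 6.70 and 5.76 with the first and second repeat spots alone. It was 5.01 with normexp and median scaling and 6.15 after subtraction of the empty spots, both chosen after seeing the data. The count of red cell probes higher in oral mucosa was 1 under all 18 alternatives. The other 3 red cell probes got a value only without a detection filter, from signals below the limit on both arrays. There miR-144-3p stood at 0.97 and miR-144-5p at 0.95, just short of the rule, and miR-486-3p at -0.57. The count over all microRNAs, 160 with VSN, was 80 with quantile normalization, 85 with median scaling, 85 with the 75th percentile, 102 with no normalization, 87 with the processed values and 76 with normexp and median scaling. It was 104 with detection on both arrays, 577 without a filter, 256 at 1.5-fold and 46 at 4-fold, as those settings imply. The cause of the changes with normalization was not tested. Signal over background limits the skin value of miR-451a, which lay 3.95 SD above the empty spots. No paired analysis was possible because there is a single array per tissue.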
